A study of Mus musculus with 3 samples.

Results

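The small leucine-rich proteoglycans (SLRPs) are secreted matrix proteins built from leucine-rich repeats. The 10 genes described here are Dcn, Bgn, Aspn, Fmod, Lum, Prelp, Kera, Omd, Ogn and Chad, taken by name from the 27040 genes that all 3 deposited count matrices list, and all 10 were found in each. Their counts were read by cell class within each library. Single cells came from the dissociated pulp and periodontium of mouse mandibular molars and were sorted for fluorescent reporters. In the P25 library, cells with GFP, with tdTomato or with both were taken from Col1a1-GFP; Cxcl12-creER; R26R(tdTomato/+) mice on postnatal day 25. In the Cxcl12-creER P6 library they were tdTomato-positive and came from Cxcl12-creER; R26R(tdTomato/+) mice on postnatal day 6. In the Cxcl12-GFP P6 library they were GFP-positive, from mice of genotype Cxcl12-GFP/+ at the same age. In the creER mice an inducible recombinase driven by Cxcl12, a stromal chemokine gene, switches on tdTomato, and neither the timing of tamoxifen nor the number of mice per library is given in the sources used here. Each group was 1 library, so nothing below has a replicate error or a p-value, and age cannot be told apart from genotype, sort and library.

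SLRPs bind fibrillar collagen and set how thick and how regular its fibrils become. Decorin (Dcn), biglycan (Bgn) and asporin (Aspn) form subfamily I and bind growth factors of the TGF-beta family. Fibromodulin (Fmod), lumican (Lum), PRELP (Prelp), keratocan (Kera) and osteomodulin (Omd, also called osteoadherin) form subfamily II, several of which carry keratan sulfate. Osteoglycin (Ogn, or mimecan) belongs to subfamily III and chondroadherin (Chad) to subfamily IV. In teeth these proteins are known from predentin and dentin, from cementum and bone, and from the periodontal ligament that ties the root to the jaw.

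Several of the 10 genes lie side by side in the mouse genome (GRCm38). On chromosome 10, Dcn (97479609 to 97518143), Lum (97565128 to 97572703) and Kera (97606879 to 97613692) follow one another on the plus strand with no other protein-coding gene between them. On chromosome 13, Aspn (49544443 to 49567565), Omd (49582462 to 49592822) and Ogn (49608046 to 49624501) do the same, 14.9 kb and 15.22 kb apart, and all 3 lie within Cenpp, which is read from the opposite strand. On chromosome 1, Fmod (134037254 to 134048277, plus strand) and Prelp (133910304 to 133921414, minus strand) are 115.84 kb apart, and Prelp overlaps the antisense transcript Gm15851. Bgn is on chromosome X (73483602 to 73495933, plus strand), and Chad on chromosome 11 (94565047 to 94569127, plus strand) lies within Acsf2 on the other strand. Whether reads were counted by strand is not given in the sources used here, so reads of Cenpp, Gm15851 and Acsf2 could add to the counts of these genes.

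RefSeq promoters (GRCm38.p6, 300 bases that span the start of the gene) were matched for 8 of the 10 genes, with no entry used for Dcn and Lum. Those of the chromosome 13 neighbours are shown because the 3 genes, although adjacent, were highest in different cell classes at P25, and those of Fmod and Prelp because both stood highest in pulp-like cells among the tooth classes at P25. They are chr13:49544193-49544492, chr13:49582212-49582511 and chr13:49607765-49608064 on the plus strand, chr1:134037004-134037303 on the plus strand and chr1:133921352-133921651 on the minus strand. Capitals mark TATAAA on the forward strand, and CAGAC (the Smad box), TGTGGT (the RUNX core) and CATCTG (a scleraxis-type E-box) on either strand.
Aspn: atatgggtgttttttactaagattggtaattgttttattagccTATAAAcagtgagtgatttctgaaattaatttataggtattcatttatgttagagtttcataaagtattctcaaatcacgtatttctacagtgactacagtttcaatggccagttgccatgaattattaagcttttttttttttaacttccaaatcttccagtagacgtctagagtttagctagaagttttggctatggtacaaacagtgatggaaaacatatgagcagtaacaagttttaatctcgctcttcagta
Omd: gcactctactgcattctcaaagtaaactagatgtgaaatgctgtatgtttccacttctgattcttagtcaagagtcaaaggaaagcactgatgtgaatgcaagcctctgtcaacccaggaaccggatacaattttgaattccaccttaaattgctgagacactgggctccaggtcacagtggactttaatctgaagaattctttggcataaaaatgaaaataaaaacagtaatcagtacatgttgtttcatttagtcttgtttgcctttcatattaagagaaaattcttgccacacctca
Ogn: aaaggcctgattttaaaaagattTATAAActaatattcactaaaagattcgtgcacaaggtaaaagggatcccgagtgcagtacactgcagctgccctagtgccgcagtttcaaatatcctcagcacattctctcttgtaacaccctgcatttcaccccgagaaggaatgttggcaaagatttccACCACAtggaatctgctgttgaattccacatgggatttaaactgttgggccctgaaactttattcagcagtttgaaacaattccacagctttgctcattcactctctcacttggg
Fmod: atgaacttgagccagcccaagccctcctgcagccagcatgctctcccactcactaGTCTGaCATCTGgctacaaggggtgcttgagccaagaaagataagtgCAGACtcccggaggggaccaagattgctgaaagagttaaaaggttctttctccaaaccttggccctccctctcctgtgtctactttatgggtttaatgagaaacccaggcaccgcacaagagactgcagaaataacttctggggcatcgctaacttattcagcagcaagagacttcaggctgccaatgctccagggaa
Prelp: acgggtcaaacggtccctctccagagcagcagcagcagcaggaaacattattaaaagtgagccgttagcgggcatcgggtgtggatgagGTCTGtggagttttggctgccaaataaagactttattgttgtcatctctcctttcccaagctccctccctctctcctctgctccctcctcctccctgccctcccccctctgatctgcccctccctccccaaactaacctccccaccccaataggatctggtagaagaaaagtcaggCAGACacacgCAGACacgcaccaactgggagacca
The Smad box, named for the factors that carry TGF-beta signals, was found in 2 of the 8 promoters, Fmod and Prelp, against 49.6% of all 32851 promoters. The Fmod promoter held CAGAC or its reverse complement at positions -195 and -148 from the start site, and Prelp at -161, 15 and 25. CATCTG, the box bound by the tendon factor scleraxis, was found in 1 of 8, Fmod at position -189, against 17.2% of all promoters, and it overlapped none of the other matches. TGTGGT was found in Ogn alone, as its reverse complement at position -65, against 16.8% of all promoters. TATAAA was found in Aspn, Ogn and Chad, against 8.32% of all promoters, and near the usual distance from the start site in Chad alone, at position -28. The Aspn promoter was 31.0% G and C, that of Omd 37.7%, that of Ogn 42.3% and that of Bgn 63.7%, against a median of 52.7% over all promoters. These matches are letters in a window and say nothing of binding.

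After filters, 5401 cells remained in the P25 library, 1121 in the Cxcl12-creER P6 library and 7065 in the Cxcl12-GFP P6 library, with medians of 14868, 1470 and 8142 unique molecular identifiers (UMIs) per cell. The deposited libraries at P25 and Cxcl12-creER P6 shared 5 cell barcodes, P25 and Cxcl12-GFP P6 shared 1, and the P6 libraries shared 0. Clusters were named only where marker genes did so without a close second, and the cells left unnamed were 32.7% at P25, 42.9% in Cxcl12-creER P6 and 17.1% in Cxcl12-GFP P6. The labels call the cells mesenchymal, but the P25 library also held cells with markers of macrophages, endothelium, epithelium, neutrophils and osteoclasts. The Cxcl12-GFP P6 library went against its label in part. eGFP was detected in 93.0% of its cells, but 1240 of 7065 cells (17.6%) also had a tdTomato UMI and 381 (5.39%) a UMI of the iCreER recombinase, neither of which the labelled genotype carries. iCreER reached 10 UMIs in a cell and 14.01 CPM over the library, against 2.87 CPM at P25, where the labelled genotype does carry a creER allele. Where these transcripts came from was not tested. Of the 1531 cells that had either, 171 were follicle or ligament-like and 651 papilla or pulp-like. Without these, each Cxcl12-GFP P6 comparison counted below made the same number of higher calls. Lower calls were not recounted, and cells of the same source without a detected UMI would have stayed in, so this does not show the comparisons to be free of such cells. The Cxcl12-creER P6 feature list held tdTomato alone, detected in 12.49% of its cells. The labels name 1 chemistry for all libraries, yet the first 8 bases of 82.3% of Cxcl12-creER P6 barcodes and of 21.0% of Cxcl12-GFP P6 barcodes also began a P25 barcode, and whether chemistry differed in the Cxcl12-GFP P6 library was not tested.

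P25 macrophage-like cells, which should lack these genes, gave 52.2 CPM (UMI counts scaled to a common total) of Lum, 46.2 of Dcn, 34.1 of Bgn and 23.1 of Aspn. They were the lowest of 13 named classes for Lum, Dcn and Bgn. Neutrophil-like and osteoclast-like cells gave 289 and 188 CPM of Lum, 158 and 157 of Dcn and 93.2 and 65.6 of Bgn. Of Aspn they gave 8.63 and 27.2 CPM, and epithelial cells 73.7 CPM. Levels near these are not told apart from background below, and the source of that background was not tested. A level is the UMI count of a gene summed over the cells of a class, scaled as CPM to the gene UMIs of that class, and 95% intervals in parentheses are exact Poisson intervals that cover counting error only. A difference is called where CPM differed at least 2-fold with at least 20 CPM on the higher side.

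**Figure D1:**
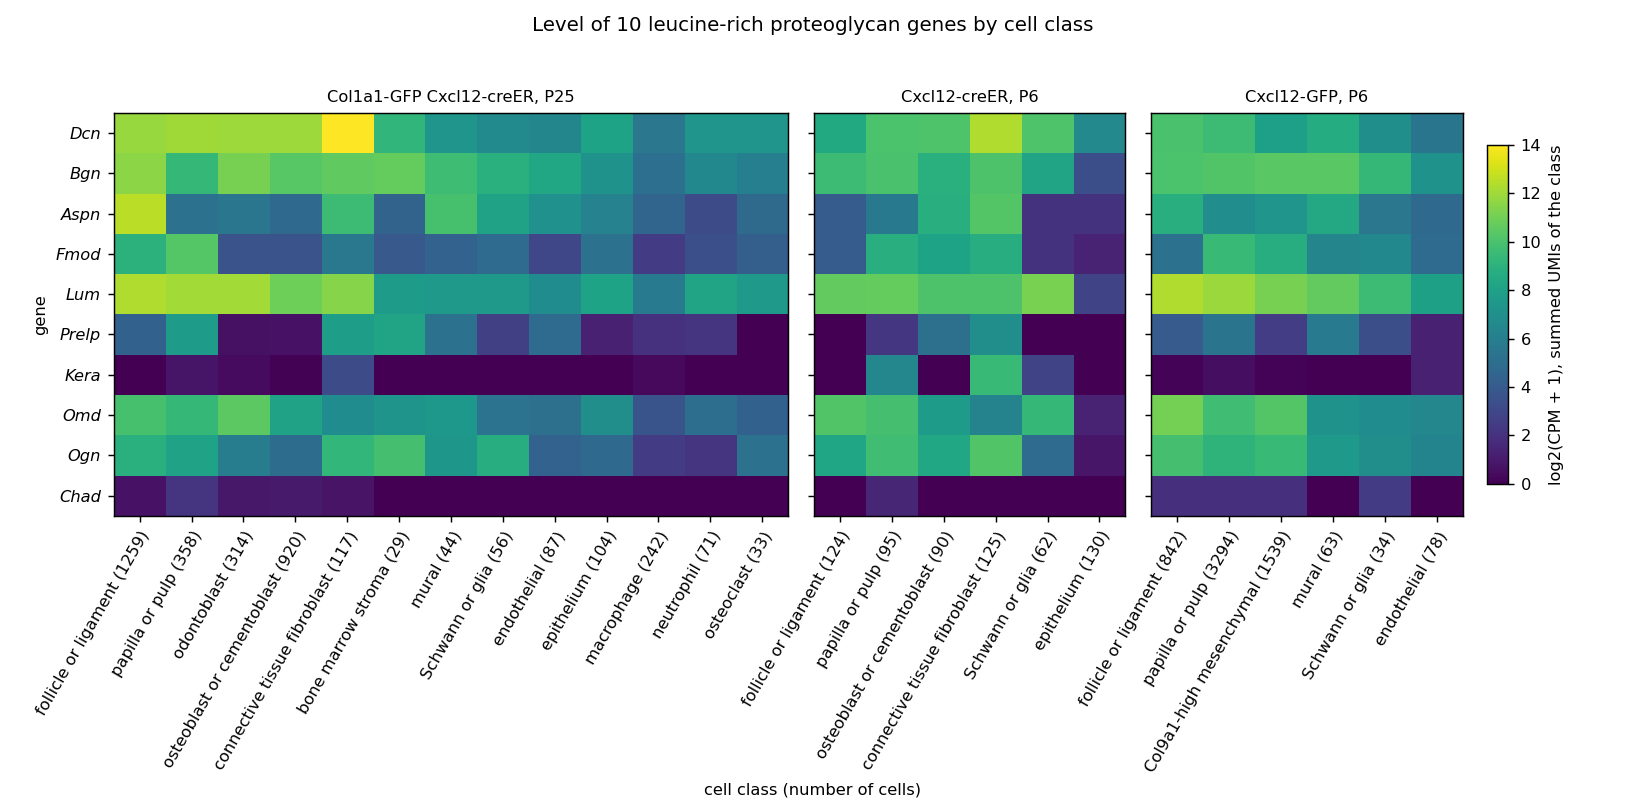
Level of each gene (rows) in each cell class of 20 cells or more (columns, number of cells in parentheses) in the 3 libraries, as log2(CPM + 1) of summed UMIs. Aspn is bright in the ligament-like column at P25 and dark in the pulp-like one beside it, and Kera and Chad are dark almost throughout.

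Asporin, a subfamily I protein known in the periodontal ligament for restraining mineralisation, was concentrated in ligament-like cells at P25, which held 85.9% of the Aspn UMIs of the library. Aspn reached 5898 CPM (5866 to 5929.6) in ligament-like cells. It was 967 CPM in mural cells and 767 CPM in connective tissue fibroblast-like cells. In pulp-like, odontoblast-like and osteoblast-like cells it was 35.9, 44.2 and 26.1 CPM, close to the 23.1 CPM of macrophage-like cells. The intervals of pulp-like and odontoblast-like cells overlapped. At an equal depth of 1000 UMIs per cell, 82.1% of ligament-like cells had an Aspn UMI, against 3.35% of pulp-like and 1.65% of macrophage-like cells (at full depth 91.02%, 22.3% and 25.6%, with median depths of 17278, 11033 and 14129 UMIs). In the Cxcl12-GFP P6 library the follicle or ligament-like class had 438 CPM (424 to 452), mural cells 345 CPM and papilla or pulp-like cells 114 CPM, so the order was the same and the spread smaller. In the Cxcl12-creER P6 library Aspn was highest in connective tissue fibroblast-like cells, at 1198 CPM (1097 to 1304), followed by osteoblast-like cells at 458 CPM. That fibroblast-like class summed to 6181 CPM over the 10 periodontal ligament markers, 9 of them at 20 CPM or more, and to 3896 CPM over its own 10 markers.

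Biglycan, the subfamily I protein with a pair of chondroitin or dermatan sulfate chains, was spread over all connective tissue classes. At P25, Bgn was 2994 CPM (2971 to 3017) in ligament-like, 2267 CPM in odontoblast-like, 1629 CPM in bone marrow stroma-like and 1525 CPM in connective tissue fibroblast-like cells. It was 1338 CPM in osteoblast-like and 631 CPM (607 to 656) in pulp-like cells. Pulp-like cells were thus the lowest of the tooth and bone classes, below mural cells at 816 CPM. In the Cxcl12-GFP P6 library the mural and tooth classes were closer together, although the papilla or pulp-like clusters differed among themselves, as given below. Mural cells had 1366 CPM, Col9a1-high mesenchymal cells 1365 CPM, papilla or pulp-like cells 1192 CPM and follicle or ligament-like cells 1055 CPM. In the Cxcl12-creER P6 library Bgn lay between 477 CPM in osteoblast-like and 1079 CPM in connective tissue fibroblast-like cells, over the 4 classes of tooth, bone and connective tissue.

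Decorin, the subfamily I protein that decorates collagen fibrils, stood out in connective tissue fibroblast-like cells. At P25, Dcn reached 17038 CPM (16829 to 17250.2) there and 4041, 3979.6, 3899 and 3628 CPM in pulp-like, odontoblast-like, osteoblast-like and ligament-like cells. Neighbours among the first 3 of these 4 classes had overlapping intervals. In the Cxcl12-creER P6 library the same class was again first, at 5237 CPM (5025 to 5456), and the next, osteoblast-like cells, had 1142 CPM. The Cxcl12-GFP P6 library had no such class, and follicle or ligament-like cells came first for Dcn, with 1006 CPM (985 to 1028), above papilla or pulp-like cells at 781 CPM and Col9a1-high mesenchymal cells at 237 CPM. At P25, connective tissue fibroblast-like cells exceeded ligament-like cells 4.70-fold in Dcn and 11.4-fold in Prelp, and were 7.69-fold lower (7.25 to 8.16) in Aspn, 10.5-fold lower (8.33 to 13.5) in Fmod and 8.57-fold lower (7.36 to 10.04) in Omd.

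Fibromodulin and PRELP, both subfamily II proteins, were highest among the tooth classes in pulp-like cells at P25 and in Cxcl12-GFP P6. At P25, Fmod was 1264 CPM (1229 to 1299) in pulp-like and 505 CPM (496 to 515) in ligament-like cells, and at most 48.1 CPM in each of the other 11 named classes. Odontoblast-like and osteoblast-like cells, with 11.1 and 11.2 CPM, did not differ beyond counting error. Fmod in the Cxcl12-GFP P6 library was 698 CPM (688 to 709) in papilla or pulp-like, 417 CPM in Col9a1-high mesenchymal and 37.98 CPM in follicle or ligament-like cells. In the Cxcl12-creER P6 library papilla or pulp-like and connective tissue fibroblast-like cells, at 439 and 424 CPM, overlapped. Pulp-like cells thus led the named classes for Fmod at P25 and in Cxcl12-GFP P6, whereas the leading pair of Cxcl12-creER P6 was not apart.

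Prelp, whose protein carries a heparin-binding end and anchors basement membranes to connective tissue, was 289 CPM (231 to 358) in bone marrow stroma-like, 223 CPM (199.9 to 249) in connective tissue fibroblast-like and 203 CPM (189 to 217) in pulp-like cells at P25, and neighbours in this order overlapped. Ligament-like cells had 19.6 CPM, and osteoblast-like and odontoblast-like cells 0.580 and 0.520 CPM. Prelp in the Cxcl12-GFP P6 library was 53.5 CPM in mural and 41.2 CPM in papilla or pulp-like cells, with overlapping intervals. In the Cxcl12-creER P6 library it was 121 CPM (90.6 to 158) in connective tissue fibroblast-like cells, 35.6 CPM in osteoblast-like cells and 3.71 CPM in papilla or pulp-like cells.

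Lumican, a keratan sulfate proteoglycan of subfamily II, was high in every tooth class. At P25, Lum was 5176 CPM (5147 to 5206) in ligament-like cells, 4279.7 CPM in odontoblast-like and 4233 CPM in pulp-like cells, whose intervals overlapped, 2856 CPM in connective tissue fibroblast-like and 1946 CPM in osteoblast-like cells. In the Cxcl12-GFP P6 library it was 5248 CPM (5199 to 5297) in follicle or ligament-like and 3801 CPM in papilla or pulp-like cells. At 1000 UMIs per cell, 94.97% of ligament-like cells at P25 and 94.7% of those in Cxcl12-GFP P6 had a Lum UMI, against 7.02% of macrophage-like cells at P25. The highest named class of the Cxcl12-creER P6 library was the Schwann-like one, at 2283 CPM. That cluster also had Coch among its 10 leading genes, as did the odontoblast-like cluster at P25 and the unnamed P25 clusters 8 and 12 and Cxcl12-creER P6 cluster 11. Whether the Lum of the Schwann-like cluster came from glia was not tested.

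Osteomodulin, the subfamily II protein of mineralising tissue that binds hydroxyapatite, was higher in odontoblast-like than in osteoblast-like cells at P25. Omd was 1439 CPM (1408 to 1470.0) in odontoblast-like, 969 CPM in ligament-like, 639.9 CPM in pulp-like and 268 CPM (260.1 to 276) in osteoblast-like cells. At P6 it was highest in follicle or ligament-like cells, with 2186 CPM (2155 to 2218) in the Cxcl12-GFP library and 1197 CPM (1046 to 1364) in the Cxcl12-creER library. Papilla or pulp-like cells followed in the Cxcl12-creER library with 936 CPM, and Col9a1-high mesenchymal cells in the Cxcl12-GFP library with 1238 CPM. Osteoglycin, first purified from bone, took yet another order. At P25, Ogn was 944 CPM (835 to 1062) in the 29 bone marrow stroma-like cells, 613 CPM in connective tissue fibroblast-like, 472 CPM in ligament-like and 425 CPM in Schwann-like cells. It was 263 CPM in pulp-like, 59.6 CPM in odontoblast-like and 29.4 CPM in osteoblast-like cells, so both mineralising classes were low. In Cxcl12-creER P6, Ogn was 1193 CPM in connective tissue fibroblast-like and 850.4 CPM in papilla or pulp-like cells, and in Cxcl12-GFP P6 it was 948 CPM in follicle or ligament-like and 545 CPM in papilla or pulp-like cells. Aspn, Omd and Ogn, although neighbours on chromosome 13, were thus highest at P25 in ligament-like, odontoblast-like and bone marrow stroma-like cells among the named classes.

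Keratocan, best known from the cornea, and chondroadherin, best known from cartilage, were near 0 in almost every class. The 403 Kera UMIs of the Cxcl12-creER P6 library came from 14 of 1121 cells. Of these, 10 cells and 315 UMIs lay in cluster 3, 1 of the 2 clusters of the connective tissue fibroblast-like class, which was led by Mfap5, Clec3b, Col14a1, Dlk1, Agtr2 and Tnmd. Each of the 10 cells had 3 or more Kera UMIs and the highest had 122, and the 42 cells of the other cluster of that class had 0. The 88.9 CPM of Kera in the papilla or pulp-like class of that library came from 48 UMIs in 1 cell. At P25, Kera had 188 UMIs in 26 of 5401 cells, of which 122 UMIs in 7 cells lay in cluster 19, an unnamed cluster of 82 cells led by Mgp, Gdf10, Mfap4, Col8a1 and Prg4. Chad had 192 UMIs at P25, of which 125 UMIs in 19 cells lay in the same cluster, and 4 cells there had both genes. In the Cxcl12-GFP P6 library Kera had 14 UMIs in 13 of 7065 cells and Chad 133 UMIs in 121 cells, with at most 2 and 3 UMIs in any cell. In ligament-like cells at P25, Kera had 0 UMIs, and 3 UMIs over the class would be 0.133 CPM.

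Within the tooth at P25, ligament-like cells (clusters 0, 2 and 7, with Tnn, Postn and Crispld2 among the leading genes) were set against pulp-like cells (cluster 4, led by Apod, Ifitm1 and Inmt). Of the 8 genes with at least 20 CPM, 2 were at least 2-fold higher and 2 at least 2-fold lower in ligament-like cells, against 9.57% and 19.1% of the 6696 genes tested. The higher ones were Aspn, 164 (139.5 to 195)-fold, and Bgn, 4.75 (4.56 to 4.94)-fold. The lower ones were Prelp, 10.3-fold lower (9.20 to 11.6), and Fmod, 2.50-fold lower (2.42 to 2.58). Ogn, Omd, Lum and Dcn differed by 1.79, 1.51, 1.22 and 0.898 times, all short of 2-fold. Kera had 0 UMIs against 3 and Chad 13 against 13, both under 20 CPM. The median log2 ratio of the 8 genes was 0.44, against -0.32 over all genes tested. When every cluster took the name of its best marker list alone, the log2 ratio of Fmod was 0.078 in place of -1.32. Cluster 8, an unnamed cluster, like the pulp-like cells had Apod, Trf, Cldn10, Nr0b1 and Msx2 among its leading genes. There, Aspn was 18.3 CPM, Bgn 533 CPM and Prelp 359 CPM, each on the pulp side of the ligament-like class. Fmod, at 579 CPM, was nearer the 505 CPM of ligament-like than the 1264 CPM of pulp-like cells.

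In the Cxcl12-GFP P6 library the follicle or ligament-like class (cluster 1, with Acta2, Bmp3, Tnmd and Moxd1 among the leading genes) was set against papilla or pulp-like cells (clusters 0, 3, 4, 5, 9 and 12). Cluster 0 scored higher for cartilage than for papilla markers and kept the papilla name because cartilage lists were set aside in clusters low in Col2a1. Again 2 of 8 genes were called higher and 2 lower, against 8.32% and 8.34% of 6775 genes tested. The higher ones were Aspn, 3.83 (3.64 to 4.02)-fold, and Omd, 2.64 (2.58 to 2.69)-fold. The lower ones were Fmod, 18.4-fold lower (16.5 to 20.6), and Prelp, 2.68-fold lower (2.23 to 3.25). The papilla side was a mixture: Fmod in clusters 5 and 12, at 38.4 and 35.3 CPM, was at the follicle or ligament-like level of 37.98 CPM, and Prelp exceeded its follicle or ligament-like level of 15.3 CPM in clusters 3 and 4 alone, at 159.8 and 45.2 CPM. Aspn, Fmod and Prelp were thus called in the same direction at both ages. Bgn was 0.884 (0.864 to 0.906) times the level of papilla or pulp-like cells at P6 and 4.75 times at P25. Against papilla clusters 3 and 4 alone, which had the least Bgn of the papilla side, its log2 ratio at P6 was 0.89 in place of -0.18. No test of the difference in Bgn between P6 and P25 was possible with 1 library per age.

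**Figure D2:**
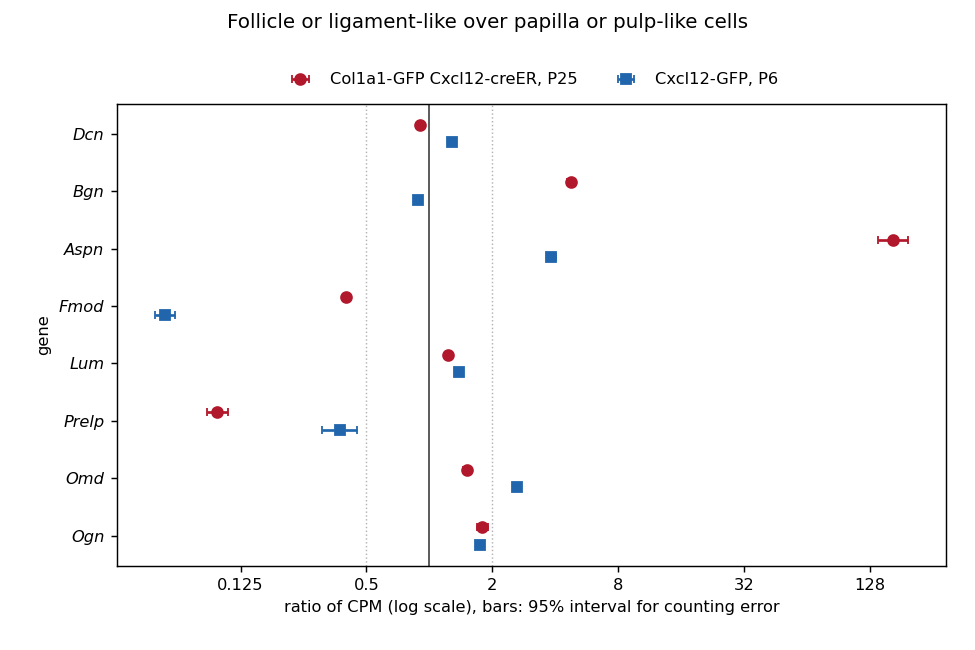
Ratio of CPM in follicle or ligament-like over papilla or pulp-like cells (horizontal log axis) for the 8 genes with at least 20 CPM, at P25 (circles) and in Cxcl12-GFP P6 (squares). Bars are 95% intervals for counting error, the solid line marks equal levels and dotted lines mark 2-fold. Aspn lies to the right and Fmod and Prelp to the left in both libraries shown, while Bgn lies to the right at P25 alone.

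The mineralising cells of the P25 library were compared next. Osteoblast-like cells (clusters 3, 6 and 10) were called lower than ligament-like cells in 6 of the 7 genes tested and higher in 0, against 10.8% called lower and 5.31% called higher among 5634 genes. Aspn was 226-fold lower (206 to 248), Fmod 45.1-fold lower (39.1 to 52.3), Ogn 16.03-fold lower (14.7 to 17.6), Omd 3.62-fold lower (3.50 to 3.74), Lum 2.66-fold lower (2.63 to 2.69) and Bgn 2.24-fold lower (2.20 to 2.27). Dcn was the exception, at 1.07 (1.06 to 1.09) times the ligament-like level. Its log2 ratio of 0.10 was -0.24 by the mean of per-cell CPM and -0.22 with each cell thinned to 1000 UMIs. With osteoblast-like cluster 10 alone it was -2.59. Prelp, Kera and Chad were under 20 CPM in both classes. The level of Aspn in osteoblast-like cells overlapped that of macrophage-like cells.

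Odontoblast-like cells (cluster 5, led by Coch, Dspp and Ifitm5) were called higher than osteoblast-like cells in 3 of 6 genes and lower in 0, against 7.3% and 4.18% of 5646 genes. Omd was 5.37-fold higher (5.18 to 5.57), Lum 2.20-fold higher (2.16 to 2.24) and Ogn 2.03-fold higher (1.76 to 2.33). Bgn and Aspn were 1.69 and 1.69 times as high, and Dcn 1.02 times. Fmod, Prelp, Kera and Chad were under 20 CPM in both. Scaling without collagen, mitochondrial and the 50 highest genes left 1 of the 3 calls. The osteoblast-like clusters were not alike: Omd was 836 CPM in cluster 10, against 181 and 106 CPM in clusters 3 and 6, and Dcn was 601 CPM against 5499.7 and 2397 CPM. Cluster 10 was led by Ibsp, Pthlh and Bmp3, cluster 3 by Col2a1, Car3 and Bglap, and cluster 6 by Spp1, Dmp1 and Mmp13. With cluster 10 alone as the osteoblast-like class, the log2 ratio of Omd between odontoblast-like and osteoblast-like cells was 0.78 in place of 2.42.

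**Figure D3:**
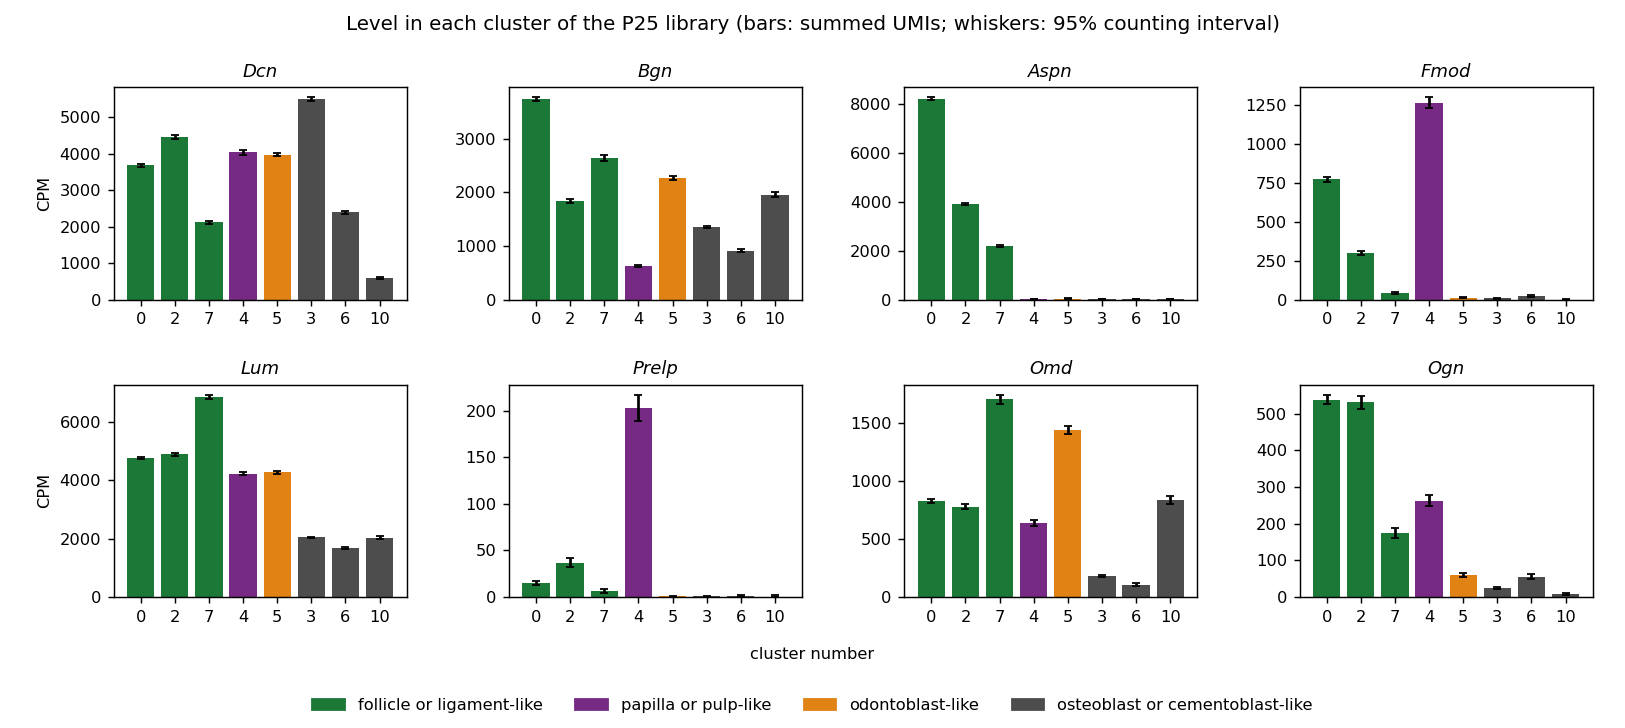
Level of 8 genes (CPM, linear axis from 0) in each ligament-like, pulp-like, odontoblast-like and osteoblast or cementoblast-like cluster of the P25 library, with 95% counting intervals as whiskers. Among ligament-like clusters, Fmod and Aspn were highest in cluster 0 and lowest in cluster 7, and Lum and Omd were highest in cluster 7.

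The ligament-like clusters differed among themselves. In clusters 0, 2 and 7, Aspn was 8208, 3919 and 2189 CPM, and Fmod 772, 297 and 43.2 CPM. Omd ran the other way, with 828, 777 and 1702 CPM, and Lum was 4769, 4893 and 6859 CPM. Cluster 7, which had the bone marker Ibsp among its leading genes, was thus the one with low Fmod and high Omd. Ogn was 538, 531 and 174 CPM and Dcn 3682, 4452 and 2124 CPM, both lowest in cluster 7. The 10 genes took no part in the clustering, and these levels are given as a description.

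The papilla or pulp-like cells of the Cxcl12-GFP P6 library split into contrasting clusters. Clusters 3 and 4, which had the most Dcn and Lum (2282 and 1103 CPM of Dcn, 7929 and 5122 CPM of Lum), also had the most Prelp (159.8 and 45.2 CPM) and Fmod (994 and 1171 CPM). They had the least Bgn (475 and 664 CPM) and Omd (291 and 430.1 CPM). Clusters 5 and 9, which had Grp, Spock1 and Gpha2 among their leading genes, showed the reverse. There, Dcn was 86.05 and 103 CPM, Lum 839 and 547 CPM and Fmod 38.4 and 83.01 CPM. Bgn was 2049 and 2494 CPM and Omd 1292 and 691 CPM. Cluster 12, which had the odontoblast markers Smpd3 and Wnt10a among its leading genes, had the most Omd of the 6, 2003 CPM, with 35.3 CPM of Fmod. Ogn varied least, between 221 CPM in cluster 12 and 605 CPM in cluster 5. The low Bgn and high Fmod and Prelp of clusters 3 and 4 is the pattern that pulp-like cells had at P25.

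**Figure D4:**
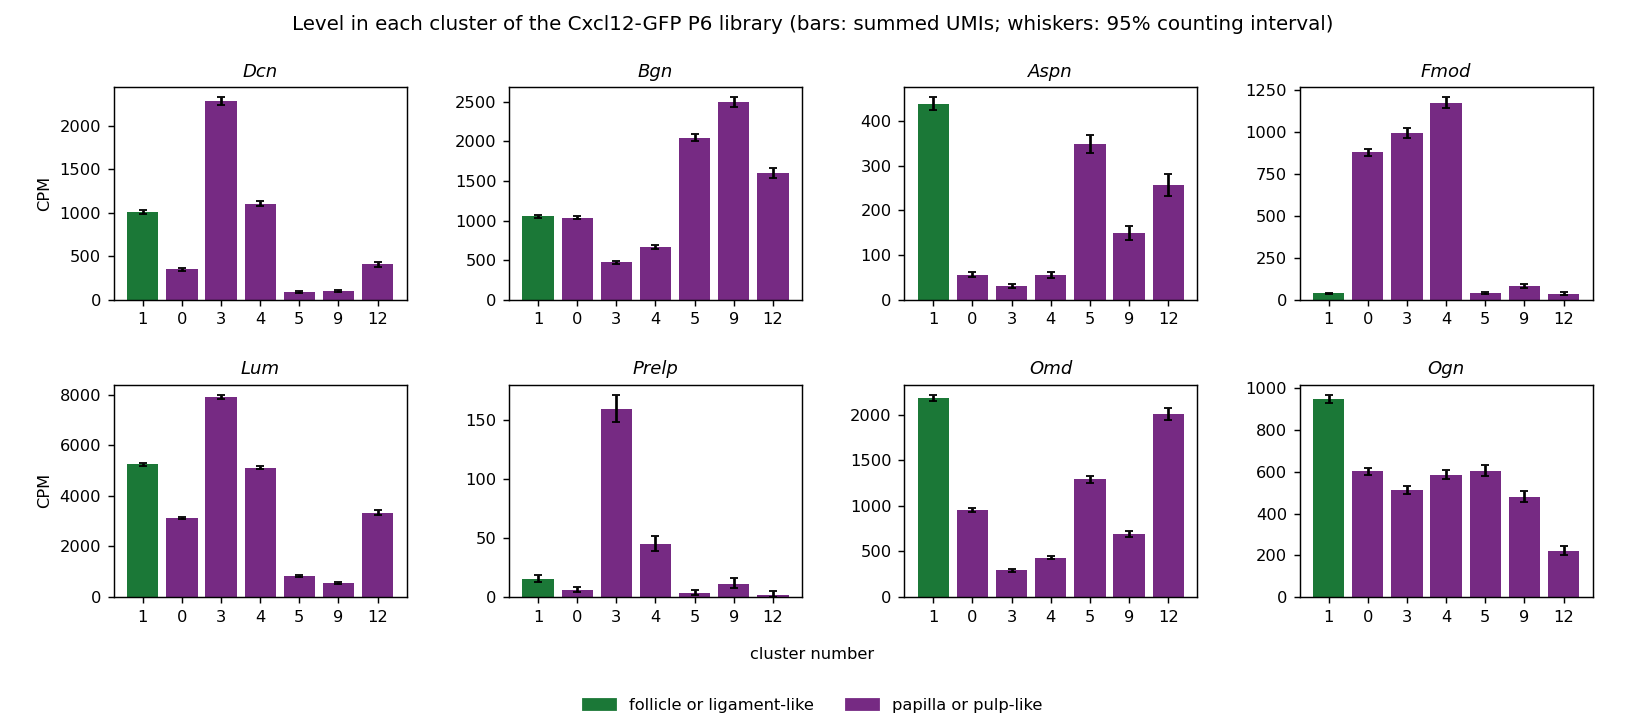
Level of 8 genes (CPM, linear axis from 0) in the follicle or ligament-like cluster and the 6 papilla or pulp-like clusters of the Cxcl12-GFP P6 library, with 95% counting intervals as whiskers. Dcn, Lum, Fmod and Prelp were high in clusters 3 and 4, where Bgn, Omd and Aspn were low.

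Between libraries, levels were compared on the genes that all 3 feature lists hold, which moves CPM slightly. In follicle or ligament-like cells, 4 of the 7 genes tested were called higher at P25 than in Cxcl12-GFP P6 and 2 lower, against 10.6% and 22.7% of 6598 genes. Aspn was 5911 CPM at P25 and 441 CPM at P6, 13.4-fold higher (12.98 to 13.9). Fmod was 507 CPM at P25 and 38.2 CPM at P6, 13.3-fold higher (11.9 to 14.9). Dcn was 3.59-fold higher (3.51 to 3.67) and Bgn 2.83-fold higher (2.77 to 2.89). Omd was 971 CPM at P25 and 2199.9 CPM at P6, 2.27-fold lower (2.22 to 2.31), and Ogn was 2.02-fold lower (1.96 to 2.08). Lum was the steady member of this pair of libraries, at 0.982 (0.972 to 0.993) times its Cxcl12-GFP P6 level. Against the Cxcl12-creER P6 class, taken up below, it was 3.28-fold higher (2.93 to 3.69) at P25. Prelp, at 19.6 CPM at P25 and 15.4 CPM in Cxcl12-GFP P6, Kera and Chad were under 20 CPM.

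The classes compared were not the same mixture. Cxcl12-GFP P6 clusters 6 and 10 scored best for periodontal ligament markers but stayed unnamed, so they were outside the P6 class. Aspn was 2043 CPM in cluster 10, and the P6 class held 20.4% of the Aspn UMIs of its library. Summed over the list, the 10 periodontal ligament markers stood at 20027 CPM at P25 and 3453 CPM in Cxcl12-GFP P6, and the 8 dental follicle markers at 475 and 4328 CPM. Of the ligament list, Scx was at 0 in the P6 class, and of the follicle list, Fgf10 was at 0 in the P25 class. The 10 osteoblast or cementoblast markers summed to 7101 and 378 CPM. Their part in the differences was not tested. With P25 cluster 7 alone the log2 ratio of Fmod was 0.18 in place of 3.69, and without doublet removal it was 1.86. The corresponding values for Aspn were 2.31 and 4.01, in place of 3.74.

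In papilla or pulp-like cells, 2 of the 8 genes tested were called higher at P25 than in Cxcl12-GFP P6 and 2 lower, against 12.2% and 12.3% of 7022 genes. Dcn was 4053 CPM at P25 and 786 CPM at P6, 5.16-fold higher (5.05 to 5.26), and Prelp was 203 and 41.4 CPM, 4.91-fold higher (4.47 to 5.39). Aspn was 36.01 and 115 CPM, 3.20-fold lower (2.70 to 3.81), and Ogn was 264 and 549 CPM, 2.08-fold lower (1.95 to 2.22). Short of 2-fold, Fmod was 1.80 times, Lum 1.11 times, Omd 0.769 times and Bgn 0.527 times its P6 level. Kera and Chad were under 20 CPM. Against P6 clusters 3 and 4 alone, the log2 ratio of Dcn was 1.25 in place of 2.36 and that of Prelp 0.97 in place of 2.27, that of Bgn was 0.15 in place of -0.92, and that of Ogn was -1.06 in place of -1.05. When each cluster took the name of its best list alone, Aspn and Ogn had log2 ratios of 1.80 and 0.74, the opposite direction. Without P6 cluster 0, Fmod also passed 2-fold, with a log2 ratio of 1.04 in place of 0.85. The 10 osteoblast or cementoblast markers summed to 2411 CPM in the P25 class, 8 of them at 20 CPM or more, and to 526 CPM with 3 in the P6 class. The 9 coronal papilla markers summed to 254 CPM at P25 and 598 CPM at P6, and the 7 apical papilla markers to 1600.2 and 2819 CPM. Their part in the differences was not tested.

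**Figure D5:**
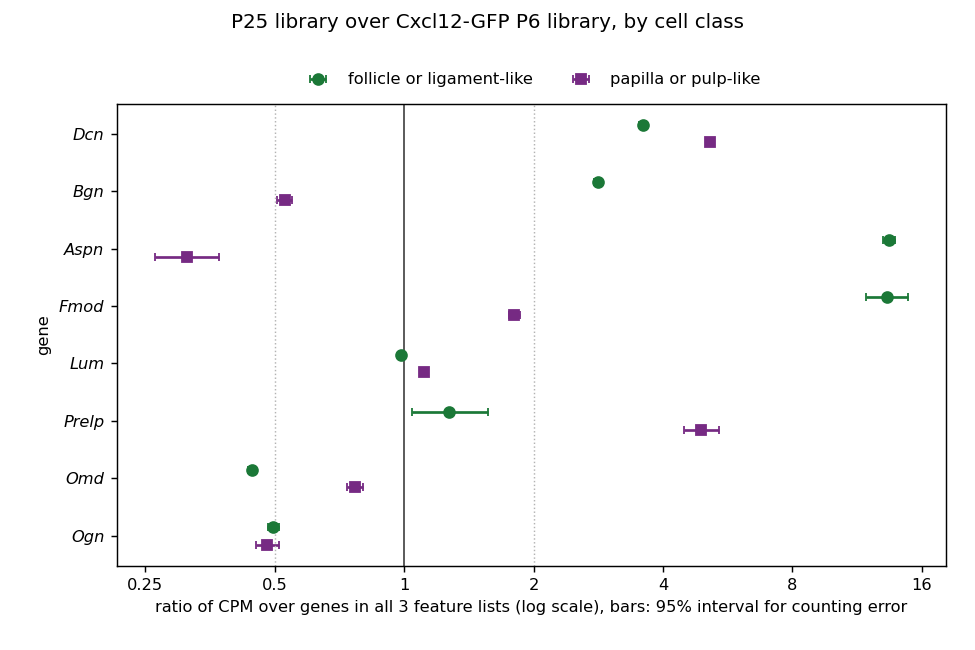
Ratio of CPM at P25 over Cxcl12-GFP P6 (horizontal log axis) for 8 genes, in follicle or ligament-like (circles) and papilla or pulp-like cells (squares), with 95% intervals for counting error. The solid line marks equal levels and the dotted lines 2-fold. Dcn lies to the right and Ogn to the left in both classes, and Aspn lies on opposite sides.

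Dcn was also higher at P25 in 3 class pairs that were not part of the counts above. Against Cxcl12-creER P6 it was 3.40-fold higher (3.09 to 3.75) in osteoblast-like, 3.24-fold higher (3.11 to 3.39) in connective tissue fibroblast-like and 3.78-fold higher (3.48 to 4.12) in papilla or pulp-like cells. In osteoblast-like cells Aspn was 26.2 CPM at P25 and 460.2 CPM in Cxcl12-creER P6, Fmod 11.2 and 278 CPM, and Ogn 29.5 and 336 CPM. The 10 osteoblast markers of these classes summed to 130408 CPM at P25 and 5572 CPM in Cxcl12-creER P6, and the part of this in the differences was not tested. In connective tissue fibroblast-like cells (cluster 15 at P25 and clusters 3 and 14 in Cxcl12-creER P6) Kera was 88.7-fold lower (50.1 to 174) and Fmod 8.86-fold lower (6.70 to 11.8) at P25, while Lum was 2.62-fold higher (2.38 to 2.89). The Kera value rests on 12 UMIs in 4 of 117 cells at P25 and 315 UMIs in 10 of 125 cells in Cxcl12-creER P6, and most Kera UMIs of the P25 library lay in cluster 19, outside the class. These classes differed in makeup too: the ligament markers summed to 1478 CPM at P25 and 6181 CPM in Cxcl12-creER P6, and the fibroblast markers to 8953 and 3896 CPM. Their part in the differences was not tested.

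The follicle or ligament-like class of the Cxcl12-creER P6 library had 124 cells in clusters 0 and 19 and 3 UMIs each of Fmod and Aspn. At P25, 5 of 7 genes were called higher than in that class and 0 lower, against 13.3% and 23.5% of 6842 genes. Dcn was 3636 CPM at P25 and 362 CPM in Cxcl12-creER P6, Lum 5188 and 1582 CPM, and Bgn 3001 and 772 CPM. Against Cxcl12-GFP P6, the Cxcl12-creER P6 class was called higher in 0 of 7 genes and lower in 5, against 13.8% and 17.9% of 7103 genes. One of the 5, Fmod, had 3 UMIs in Cxcl12-creER P6, and its ratio of 0.418 (0.0858 to 1.23) did not exclude equal levels. Aspn was 15.98 CPM in Cxcl12-creER P6 and 441 CPM in Cxcl12-GFP P6, Lum 1582 and 5281 CPM, and Ogn 298 and 954 CPM. The 10 dental epithelium markers, which include abundant enamel proteins, summed to 3284 CPM in the Cxcl12-creER P6 class and to 106 CPM in the Cxcl12-GFP P6 class, and their part in these differences was not tested. These values turned on which clusters took the name: the log2 ratio of Dcn between Cxcl12-creER P6 and Cxcl12-GFP P6 was -1.48, but 2.56 with at most 10% mitochondrial UMIs and 1.98 at a clustering resolution of 0.5. Between P25 and Cxcl12-creER P6 it was 3.32, but -0.86 and -0.55 under the same alternatives and -0.35 without doublet removal. The comparisons with this class also share libraries with those above.

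Over the 25 classes of 20 cells or more, log2(CPM + 1) values of the 10 genes were correlated in 45 pairs, as a description of points that share libraries and depth. Pearson's r ran from 0.01 for Kera and Chad to 0.89 for Lum and Omd. Bgn followed Lum (0.81), Ogn (0.80) and Omd (0.78), whereas Prelp followed Omd least (0.12) and Aspn had no r above 0.62. Dcn and Lum, neighbours on chromosome 10, had an r of 0.74. Aspn and Omd had 0.27, Omd and Ogn 0.65 and Fmod and Prelp 0.52. Among 7701 genes with at least 50 CPM in some class, those most like each member were Mxra8, Pcolce and P3h3 for Bgn (r 0.94 to 0.96), Serpinf1, Prrx2 and Pdgfrl for Lum (0.90 to 0.92), Foxf2, Mab21l2 and Foxf1 for Omd (0.89 to 0.94), Dact1, Plxdc2 and Islr for Ogn (0.88 to 0.92) and Sned1, Enpep and Csf1 for Prelp (0.79 to 0.87). They were Mmp16, Col1a2 and Creb3l1 for Dcn (0.81 to 0.83), Agtr2, Gm26771 and Nrk for Kera (0.74 to 0.79), Clec11a, Vstm2b and Capn6 for Fmod (0.76 to 0.78) and Spon2, Col3a1 and Thbs3 for Aspn (0.75 to 0.76). For Chad, with at most 5 CPM in any named class, they were Tmem165, Ift46 and Wdr45 (0.73 to 0.78).

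Most ligament-like, odontoblast-like and pulp-like cells had UMIs of several members at once. At 1000 UMIs per cell, 95.7% of ligament-like, 82.8% of odontoblast-like, 79.1% of pulp-like and 48.3% of osteoblast-like cells at P25 had UMIs of 3 or more of the 10 genes, against 0.413% of macrophage-like cells. The 10 genes together made up 1.96% of UMIs in ligament-like, 2.32% in connective tissue fibroblast-like, 1.204% in odontoblast-like, 1.13% in pulp-like and 0.749% in osteoblast-like cells at P25.

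Genes that act with the family were read from 7 lists chosen with earlier results known. In P25 ligament-like against pulp-like cells, 9.57% of all genes tested were called higher and 19.1% lower, and the lists are too short for a split of 1 or 2 genes to be read against that. There, all 8 genes of 20 CPM or more on the list of fibril collagens and fibril-associated collagens were at least 2-fold higher. Among them, Col11a1 was at 2084 against 40.6 CPM and Col1a1 at 47907 against 1442 CPM. Col12a1, on the same list, was also a periodontal ligament marker used to name clusters. All 8 genes tested on the list of proteases that process or cut the family were also at least 2-fold higher. That list includes Pcolce, which is not itself a protease. Among the 8 were the collagenase Mmp13 (1311 against 20.7 CPM) and the aggrecanase Adamts5 (113 against 4.24 CPM). Of 8 other genes of the leucine-rich proteoglycan family, 3 reached 20 CPM and all 3 were higher, Podnl1 and Podn at 82.3 and 84.7 CPM against under 1 CPM, and Ecm2 at 95.6 against 17.9 CPM. Ecm2 is the next gene to Aspn on chromosome 13. The crosslinking enzymes split 3 higher and 1 lower of 6, with Lox, which initiates collagen crosslinks, at 499 against 55.3 CPM. The TGF-beta list split 2 higher and 3 lower of 6: the ligand genes Tgfb2 and Tgfb3 were at 87.03 against 357 and 75.7 against 278 CPM, and the TGF-beta-induced matrix gene Tgfbi at 28.4 against 693 CPM. Of 13 genes that build chondroitin or dermatan sulfate chains, 2 were higher, Chpf and the dermatan sulfate epimerase Dse (62.6 against 27.2 CPM), and 1 lower, the uronyl sulfotransferase Ust (19.4 against 71.3 CPM). The single keratan sulfate gene tested, B4galt1, was higher.

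Between P25 and Cxcl12-GFP P6 in follicle or ligament-like cells, where 10.6% of all genes were called higher and 22.7% lower, all 8 fibril collagens tested were again higher, Col5a1 at 1384 against 129.97 CPM and Col1a2 at 35924 against 4597 CPM. The family genes Ecm2, Podnl1 and Podn were all higher, Ecm2 at 95.8 against 5.06 CPM. Of 8 genes tested on the protease list 3 were higher, Mmp13 at 1314 against 27.5 CPM, and 0 lower. Of 3 keratan sulfate genes, 2 were lower, among them the sulfotransferase Chst2 (15.01 against 63.4 CPM), which was also lower in pulp-like cells (9.75 against 82.8 CPM). The crosslinking list gave 2 higher and 1 lower of 5, the chondroitin or dermatan sulfate list 2 higher and 1 lower of 13, and the TGF-beta list 1 higher and 2 lower of 6, with Tgfb1 at 439.6 against 59.4 CPM and Tgfbi at 28.5 against 617 CPM. In papilla or pulp-like cells, 12.2% and 12.3% of all genes were called. There, 0 of 7 genes of the collagen list were higher at P25 and 2 lower, Col1a1 at 1446 against 4270.5 CPM.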

How the data were processed

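For each of 3 droplet libraries (3' sequencing), 1 per group, the authors deposited a matrix of unnormalized UMI counts, genes by barcodes. Per the matrix headers, P25 was made with Cell Ranger 3.1.0 and Cxcl12-creER P6 with 6.0.0, while the submitters' processing notes name mm10, Cell Ranger and Seurat. Other settings are not given in the sources used. The deposited totals were 99277096 UMIs at P25, 6596256 in Cxcl12-creER P6 and 68891094 in Cxcl12-GFP P6.

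Barcodes under 500 genes or, among the rest, over 15% mitochondrial UMIs were dropped: 741 and 295 at P25, 536 and 24 in Cxcl12-creER P6 and 3 and 8 in Cxcl12-GFP P6. Doublet scores came from a reimplemented Scrublet scheme, and the highest were removed at 0.8% per 1000 cells, a number set by that rate and not by the scores (256, 10 and 452 cells). Each library was clustered alone (2000 variable genes, 30 principal components, 15 neighbours, Leiden resolution 1.0, seed 1), with the 10 genes, 8 other genes of the family, Cxcl12, the reporters and mitochondrial and ribosomal genes left out of the variable genes. Clustering used leidenalg 0.10.2 and igraph 0.11.9, intervals used scipy 1.17.1, and the rest used scikit-learn 1.9.0, pandas 2.3.3 and numpy 2.4.6 under Python 3.11.15, with figures from matplotlib 3.10.9. Of 69 clusters, 27 stayed unnamed. A cluster took the name of its best eligible list of 21 where at least 3 markers were 1.5-fold above the median of the other clusters in at least 10% of its cells, the mean log2 score reached 1.2 and no second list passed 0.8 of it. The cycling list gave no name, the erythroid list was eligible only with a marker among the 10 leading genes, and the cartilage list was set aside in clusters with under 1000 CPM of Col2a1. Clusters whose leading genes held more markers of another class, or that cycling genes led, stayed unnamed. Follicle and ligament lists were joined, as were coronal and apical papilla lists. These limits were chosen with the clusters in view. Clusters low in Col2a1 that scored for cartilage markers and for no eligible list were called Col9a1-high mesenchymal, so that Cxcl12-GFP P6 cluster 0, which scored 1.81 for cartilage and 1.39 for papilla markers, was named by the papilla list.

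The members and all gene lists were chosen with earlier results of these data known. With 1 library per group no test across samples was possible. CPM ratios carry exact conditional binomial 95% intervals, and shares of cells were thinned to 1000 UMIs per cell with shallower cells left out. The genes named were all 10 members, the 3 genes most like each by Pearson's r, and up to 4 genes per list past 2-fold with the largest changes. The ratio calculation was tested on simulated data.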

Additional observations from a re-analysis of the deposited data

Results flagged for a closer look

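Ratios that pointed in opposite directions in 2 settings came first. Bgn in ligament-like over pulp-like cells was 4.75 at P25 and 0.884 in Cxcl12-GFP P6, where the log2 ratio was 0.89 against papilla clusters 3 and 4 alone. Its ratio between P25 and Cxcl12-GFP P6 was 2.83 in follicle or ligament-like and 0.527 in papilla or pulp-like cells. The log2 ratio in pulp-like cells was 0.15 against P6 clusters 3 and 4 alone and 0.27 with best-list names, so its direction turned on the cells compared. Clusters 3 and 4 were chosen after the data were seen and had the least Bgn of the papilla or pulp-like clusters. A higher log2 ratio of Bgn against them followed from that choice. The ratio of Aspn between P25 and Cxcl12-GFP P6 was 13.4 in follicle or ligament-like and 0.313 in papilla or pulp-like cells. In the latter, best-list names gave a log2 ratio of 1.80, the same direction as in ligament-like cells. With 1 library per age these differences were not tested.

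Unnamed clusters, which entered no comparison, held the highest level of a member in several cases. At P25, Chad and Kera reached 118 and 116 CPM in cluster 19, Ogn 1504 CPM in cluster 1 and Omd 2688 CPM in cluster 12. In Cxcl12-GFP P6, Aspn reached 2043 CPM in cluster 10 and Ogn 1244 CPM in cluster 6. P25 cluster 1 (443 cells) was led by Sfrp2, Acta2 and Pcp4 and P25 cluster 12 (195 cells) by Ambn, Pcp4 and Crabp1. Cxcl12-GFP P6 cluster 10 (287 cells) had Lpl, Mmp13, Tnmd and Ostn among its leading genes, and cluster 6 (469 cells) Mmp13, Acta2 and Adamts5.

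Reporter sequences outside the labelled genotype were counted in Cxcl12-GFP P6, with 24.0 CPM of tdTomato and 14.01 CPM of iCreER. iCreER was found in 191 of 1539 Col9a1-high mesenchymal cells and 149 of 3294 papilla or pulp-like cells, and in 3 of 842 follicle or ligament-like cells. The source of these transcripts was not tested.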

How the results depend on the processing

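Of 128 alternative counts of members called, 115 stayed within 1.5 times the reported count. The others were as follows. With at most 10% mitochondrial UMIs, 4 members in place of 2 were higher in ligament-like than pulp-like cells at P25, and 2 in place of 0 in Cxcl12-creER P6 than Cxcl12-GFP P6. At resolution 0.5 these counts were 4 and 2, and the ligament over pulp count in Cxcl12-GFP P6 was 1 in place of 2. Naming each cluster by its best list alone gave 1 higher in ligament-like cells at P25 and 2 in place of 0 lower in odontoblast-like than osteoblast-like cells. Without doublet removal the counts were 0 for ligament over pulp in Cxcl12-GFP P6 and 2 for Cxcl12-creER P6 over Cxcl12-GFP P6. Allowing members among the clustering genes gave 3 there, and 3 in place of 5 for P25 over Cxcl12-creER P6. Scaling without collagen, mitochondrial and the 50 highest genes left 1 of 3 members higher in odontoblast-like cells. Papilla clusters 3 and 4 alone left 1 of 2 members higher at P25 in pulp-like cells. The causes were not tested.

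Of 749 alternative log2 ratios, 475 moved beyond the counting interval of the reported value without reversing a call. Of the 482 that belong to called members, 12 reversed, listed next. Of the 267 for members not called, 48 changed sign. Dcn between P25 and Cxcl12-creER P6 follicle cells was -0.86, -0.55 and -0.35 with 10% mitochondrial UMIs, resolution 0.5 and no doublet removal, and between Cxcl12-creER P6 and Cxcl12-GFP P6 it was 2.56, 1.98 and 2.33, and 1.84 with members among the clustering genes, where Fmod was 3.67. Ogn was 0.055 there with Cxcl12-creER P6 cluster 7 added. With best-list names, Fmod was 0.078 in ligament-like over pulp-like cells at P25, and Ogn 0.74 and Aspn 1.80 at P25 over Cxcl12-GFP P6 in pulp-like cells. Of 471 alternatives to ratios of at least 1 in size, 412 kept that size and sign. Changes to single clusters and the exclusion of cells with tdTomato or iCreER UMIs were chosen after seeing the data. No paired analysis was possible because each group was 1 library, which also left no replicate to leave out.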

Other observations

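Other genes of the leucine-rich proteoglycan family were also read by class. Chadl, related to chondroadherin, was 171 CPM in Col9a1-high mesenchymal and 66.1 CPM in papilla or pulp-like cells of Cxcl12-GFP P6, and 83.5 CPM in Schwann-like cells at P25. Ecm2 was 125 CPM in endothelial and 105 CPM in mural cells at P25, classes in which Dcn was 84.2 and 156 CPM. Podnl1 was 152 CPM in bone marrow stroma-like cells at P25. Epyc, the neighbour of Kera on chromosome 10, was highest in Col9a1-high mesenchymal cells at 13.6 CPM.

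In P25 cluster 12, Dcn was 6770.5 CPM, Lum 5635 CPM and Omd 2688 CPM, and 1 cell held 39 of its 45 Kera UMIs. In P25 cluster 19, Fmod was 1289.9 CPM and Aspn 2849.8 CPM. These clusters carried no name and entered no comparison.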
